A study of Homo sapiens with 8 samples.

Results

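The regions described here are the ChIRP-seq peaks on chromosome 1 that start between positions 121000000 and 142999999 of build hs1, the stretch that holds the centromere and the heterochromatin of band 1q12. ChIRP-seq pulls an RNA out of sonicated chromatin with biotinylated antisense probes and sequences the DNA that comes with it, here with probes against α-satellite RNA in wild-type RPE1 cells, which are human retinal pigment epithelial cells made immortal in culture. The range held 2498 of the 32035 peaks listed for asynchronous cells and 2800 of the 33553 peaks listed for mitotic cells. Peaks that start below 127000000 were taken as the α-satellite block, and those from there on as the 1q12 block. The study has 8 libraries from cells labelled Async or Meta, and how mitotic cells were collected is not stated. For each condition these are 1 input, 1 labelled Scr, and 2 pulled down with the Odd and the Even probe set. Each condition is represented here by 1 peak list made from its merged Odd and Even libraries. The lists give no replicate error, so the conditions are set side by side without a test. The 95% intervals given below are exact, reflect counting error alone and take neighbouring peaks as independent. Depth per library is unknown from the lists.

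α-Satellite is the tandem repeat that underlies human centromeres, where its monomers are arranged in higher-order units and the kinetochore forms on part of an array. The main array of chromosome 1 is built of a monomer pair, and closely related pair arrays lie on chromosomes 5 and 19, so short reads from these arrays can be hard to assign to 1 chromosome. Next to it on the long arm lies one of the longest heterochromatin blocks of the genome, which consists largely of satellite 2, a repeat unrelated in sequence to α-satellite. Satellite 2 is known for its stretching and breakage when its DNA methylation is lost. The repeat classes are background from band position; no annotation of build hs1 was used, and the blocks are defined by position alone.

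The limits of the range fell in empty stretches. In the asynchronous list the nearest listed peaks outside it started at 92264929 and 145750527, with a fold enrichment of 3.70 and 3.74. In the mitotic list they started at 117446253 and 146218603, with a fold enrichment of 4.35 and 3.32. Fold enrichment is the authors' ratio of a peak's pileup to its local background. It is used here to describe, rank and filter peaks within a list, apart from a strict limit set alike for both lists, and since the scaling of the lists is not stated, values of different lists stand side by side without a comparison. The border between the blocks was empty as well: the last asynchronous peak below it ended at 126817292 and the last mitotic one at 126846321, and no mitotic peak started above it before 127453954.

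In the α-satellite block the mitotic list had more peaks that were narrower and together covered less DNA. The asynchronous list held 2497 peaks covering 3.16 Mb, which is 7.79% of its peaks (7.50 to 8.09%) and 6.64% of its covered length. The mitotic list held 2753 peaks covering 2.86 Mb, 8.20% of its peaks (7.91 to 8.50%) and 5.94% of its covered length. Mitotic over asynchronous, the number of peaks had a ratio of 1.10 (1.04 to 1.16) and the covered length one of 0.906. The whole mitotic list was also the larger, with 33553 against 32035 peaks and 48.1 against 47.5 Mb covered. The ratios are not adjusted for this, and the intervals of the shares of peaks overlap. Peaks covered 60.4% of the 5.23 Mb from the first to the last peak of either list in asynchronous cells and 54.7% in mitotic cells.

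Widths set the lists apart over most of their range. Asynchronous peaks had a median width of 941 bp with quartiles of 521 and 1620 bp, whereas for mitotic peaks the median was 740 bp and the quartiles were 423 and 1294 bp. All other listed peaks had medians of 849 and 815.5 bp, so that peaks of this block were wider than the rest of the asynchronous list and narrower than the rest of the mitotic list. Peaks under 500 bp made up 589 of the 2497 asynchronous peaks (23.6%) and 899 of the 2753 mitotic peaks (32.7%). Peaks of 1 kb or more numbered 1149 and 951 and carried 75.2% and 65.8% of the covered length. At the far end the difference was small, with 35 asynchronous and 30 mitotic peaks of 5 kb or more.

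**Figure D1:**
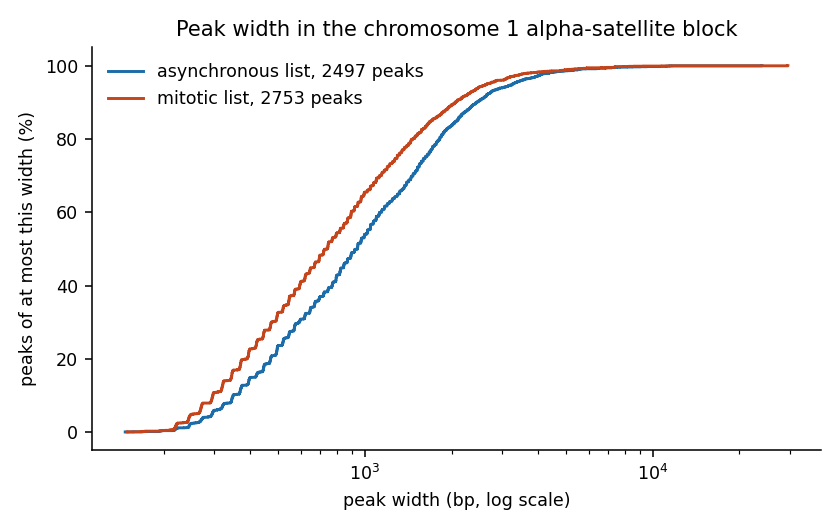
Cumulative share of peaks (%) against peak width (bp, log scale) in the α-satellite block, 1 line per list. The mitotic line lies to the left through the middle of the range, with a median of 740 against 941 bp, and the lines meet among the widest peaks.

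The spaces between peaks were short in both lists. Neighbouring asynchronous peaks were separated by a median of 381 bp and mitotic ones by 432 bp; the shortest gap was 101 bp in both. Gaps of at most 500 bp made up 57.8% and 53.7% of all gaps. Joining peaks across them left 1276 mitotic against 1055 asynchronous peaks (ratio 1.21, interval 1.11 to 1.31), so the larger mitotic number was still there after joining. The longest stretch without an asynchronous peak was 36429 bp (126744573 to 126781001), and the longest without a mitotic peak 25206 bp (126748298 to 126773503). Both lie near the long-arm end of the block and overlap. Distances between peak starts had no outstanding value from 600 to 6000 bp. In bins of 50 bp, the fullest held 88 asynchronous pairs (1951 to 2000 bp) against a median of 61. In the mitotic list it held 97 pairs (3751 to 3800 bp) against a median of 75. Shorter distances were not counted, so a repeat length under 600 bp was not looked for.

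Coverage varied along the block in a similar way in both lists. In windows of 250 kb lying wholly inside the block, coverage ran from 44.0% to 77.7% in the asynchronous list and from 36.3% to 72.0% in the mitotic list. The lowest such window was the same in both, from 122500001 to 122750000, and so was the highest, from 125250001 to 125500000. In the lowest window the median fold enrichment was 5.91 and 6.10, and in the highest it was 8.61 and 7.66. Other well covered windows began at 124000001 (75.4% and 71.0%), 124750001 (73.1% and 70.3%), 125000001 (76.9% and 66.2%) and 126250001 (77.4% and 71.2%). Those from 124750001, 125000001 and 125250001 followed one another directly. Thinner ones lay between others, such as those that began at 124500001 (49.6% and 45.6%) and 126000001 (49.4% and 45.1%).

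**Figure D2:**
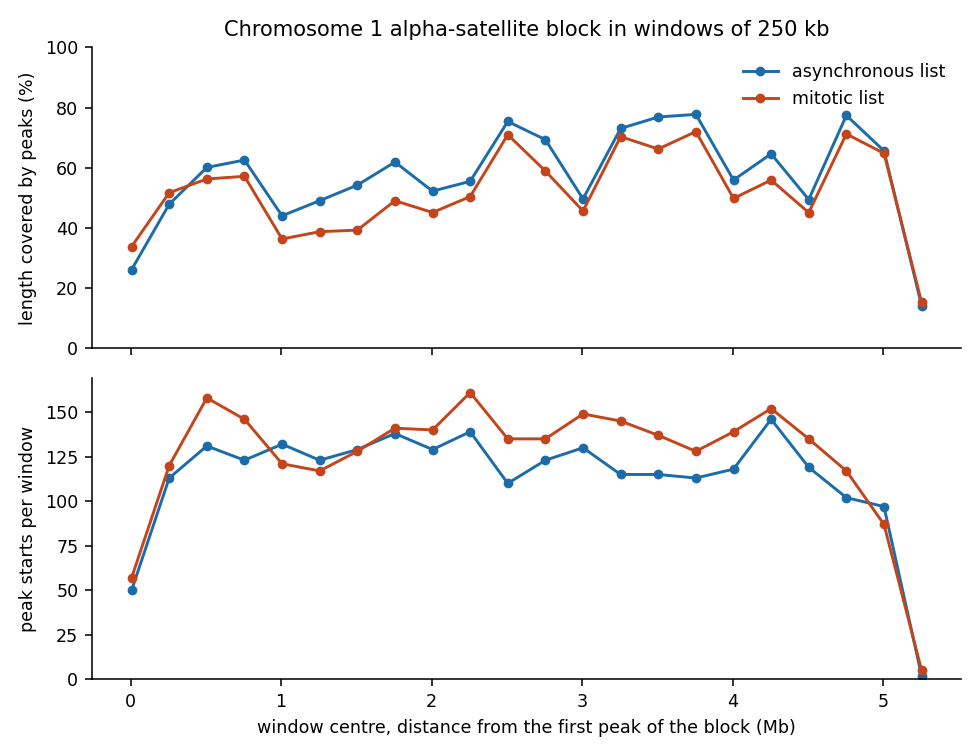
Length covered by peaks (%, upper panel) and number of peak starts (lower panel) in windows of 250 kb, against the distance of the window centre from the first peak of the block (Mb), 1 line per list. The mitotic line lies lower in 19 of 22 windows of the upper panel and higher in 18 of 22 windows of the lower; the first and last windows reach past the ends of the block.

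The pairing of more peaks with less coverage ran through most of the block. Of the 22 windows that held peaks, 18 had more mitotic than asynchronous peaks and 4 had fewer, while 19 had less covered length in the mitotic list and 3 had more. The widest gap in coverage was in the window from 123000001 to 123250000, at 54.2% for asynchronous against 39.3% for mitotic peaks, from nearly equal numbers of peaks, 129 and 128. The 3 windows with more mitotic coverage were those at the ends of the block: 26.1% and 33.8% from 121500001, 47.9% and 51.7% from 121750001, and 14.1% and 15.2% from 126750001. The first and the last of these also lie partly outside the block. The mitotic median width was lower in 19 of the 20 windows wholly inside.

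Peaks of this block were seldom among the strongest of their list. The median fold enrichment was 7.44 in the asynchronous block against 7.77 over all other asynchronous peaks, and 7.10 in the mitotic block against 8.09 over all other mitotic peaks. Of the asynchronous peaks 375 (15.0%, 13.6 to 16.5%) were among the 25% of their list with the highest fold enrichment. Of the mitotic peaks 203 (7.37%, 6.43 to 8.41%) were, again against 25% of the whole list. Among these strong peaks the number of mitotic over asynchronous peaks came to 0.541 (0.454 to 0.644) and their covered length to 0.490. The cut was taken in each list by itself and depends on its peaks elsewhere. These counts therefore do not share 1 limit of fold enrichment. Under a strict limit set alike for both lists (fold enrichment 6 or more, −log10 q 5 or more), 1921 asynchronous peaks (76.9%, against 73.7% of the whole list) and 2014 mitotic peaks (73.2%, against 77.6%) passed, giving a mitotic to asynchronous ratio of 1.05 (0.985 to 1.12). This ratio rests on fold enrichments being on 1 scale in both lists, which was not tested. Its interval includes 1, while the ratio of covered length was 0.879.

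The 3 highest fold enrichments of each list came from few places, the ends of the block and a stretch around 125162052 to 125193194. In the asynchronous list the highest value, 14.8, was that of a 720 bp peak at 126690651 to 126691370. A mitotic peak with a fold enrichment of 11.9 covered all of it. Next came a 544 bp peak at 125162052 to 125162595 with 14.7 and a 518 bp peak at 121717902 to 121718419 with 14.5; mitotic peaks of 11.8 and 12.5 covered 74.4% and 100% of them. In the mitotic list the highest value, 14.1, belonged to a peak of 11645 bp at 126654201 to 126665845, where 3 asynchronous peaks covered 98.0% with a highest value of 12.5. Peaks at 125192753 to 125193194 (13.8) and at 126674830 to 126676671 (13.4) followed. So the leading places of each list were covered in the other.

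The widest peak of both lists was the same site at the long-arm end of the block. It measured 23990 bp in the asynchronous list (126793303 to 126817292, fold enrichment 11.01) and 29495 bp in the mitotic list (126794827 to 126824321, fold enrichment 12.98). It was the last α-satellite peak of the asynchronous list. In the mitotic list 1 more peak of 221 bp followed at 126846101, with a fold enrichment of 4.11 and no asynchronous partner. The asynchronous peak next to this site, 11372 bp from 126781002 to 126792373, was covered over only 38.6% by 1 mitotic peak. The third widest mitotic peak, 10743 bp from 126472154 to 126482896 with a fold enrichment of 10.3, was covered over 98.8% by 2 asynchronous peaks. A peak of 11493 bp of the asynchronous list inside the array, from 125112354 to 125123846, was met by 5 mitotic peaks that covered 76.3% of it. At the short-arm end both lists began within the same 100 bp: the first asynchronous peak ran from 121618803 to 121627845 and the first mitotic peak from 121618880 to 121625796, with a fold enrichment of 9.83 and 11.8.

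About 4 in 5 peaks of the block met a peak of the other list. A mitotic peak overlapped 1992 asynchronous peaks (79.8%, 78.1 to 81.3%) by 1 bp or more, near the 81.9% over the whole asynchronous list. Of the mitotic peaks 2224 (80.8%, 79.3 to 82.2%) met an asynchronous peak, near the 79.2% over the whole mitotic list. The lists shared 2.24 Mb, which is 71.1% of what asynchronous peaks covered in the block, 78.5% of what mitotic peaks covered and 59.5% of the length they covered together. DNA covered in the asynchronous list alone amounted to 0.913 Mb and DNA covered in the mitotic list alone to 0.616 Mb. With a reciprocal overlap of at least 50% the shares of peaks fell to 52.2% and 47.3%. For this limit no share over the whole lists is given, so whether the block differs from them is unknown.

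Peak borders rarely coincided. A start within 25 bp of a start in the other list was found for 407 asynchronous (16.3%) and 407 mitotic peaks (14.8%), and 41 starts were identical. No such share over the whole lists is given here, so whether these are low for the lists is unknown. Of the asynchronous peaks 435 (17.4%) met 2 or more mitotic peaks, with up to 7 for 1 peak, while 256 mitotic peaks (9.30%) met 2 or more asynchronous peaks. An asynchronous peak that met several mitotic ones was thus the more frequent case, in a block where asynchronous peaks were the wider and fewer. In the largest runs of peaks on the other chromosomes, defined below, these shares had medians of 16.8% and 17.3%. Whether peaks were divided was not tested. Mitotic peaks were also the narrower where peaks met 1 to 1. Among 1186 peaks with 1 partner on each side, median widths were 897.5 bp for the asynchronous and 744.5 bp for the mitotic partner. The mitotic one was the narrower in 761 pairs (64.2%). Peaks without a partner were narrow and weak in both lists. The 505 such asynchronous peaks had a median width of 519 bp and a median fold enrichment of 5.87, against 1057 bp and 7.76 for those with a partner. The 529 such mitotic peaks had medians of 444 bp and 6.02, against 821.5 bp and 7.35.

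Set against the other chromosomes, the block stood at an end of the order in the total number of peaks and in the change in coverage, but not in peaks per Mb. For this, peaks of both lists with gaps of at most 100 kb were joined and the run with the most covered length was taken on each of 23 chromosomes; on chromosome 1 this run is the whole α-satellite block. It was the third longest run and held the most peaks in both lists, before chromosome 19 with 2459 in the asynchronous list. Per Mb it held 478 asynchronous and 527 mitotic peaks, the 7th and the 4th highest value, while chromosome 5 was highest with 618 and 652. The ratio of covered length, 0.906, was the lowest of the 23, next to 0.908 on chromosome 11, and the median of the other 22 was 1.01. The ratio of median widths, 0.786, was the second lowest after 0.778 on X, and the median width was lower in the mitotic list on 10 of the 23. Its median fold enrichment was rather low, the 8th from below in the asynchronous and the 4th from below in the mitotic list.

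The pairing of more mitotic peaks with less mitotic coverage was seen on 8 of the 23 chromosomes: 1, 3, 5, 10, 11, 17, 19 and X. It therefore was not particular to chromosome 1. The ratios of peaks are not adjusted for the larger number of peaks in the whole mitotic list. The interval for the ratio lay above 1 on 4 of the 8, chromosomes 1, 11, 17 and X. It included 1 on chromosome 3, at 1.03 (0.733 to 1.44), and on chromosome 10, at 1.01 (0.935 to 1.10). Both chromosomes with related arrays were among them, with smaller differences. On chromosome 5 the ratio of peaks was 1.06 (0.995 to 1.12) and that of covered length 0.941. On chromosome 19 they were 1.01 (0.954 to 1.07) and 0.948. The intervals for the ratio of peaks included 1 on both. Coverage was lower there than on chromosome 1, at 53.2% on chromosome 5 and 40.2% on chromosome 19 in the asynchronous list. How reads were divided among the related arrays is not given in the sources, and its part in these values was not tested.

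**Figure D3:**
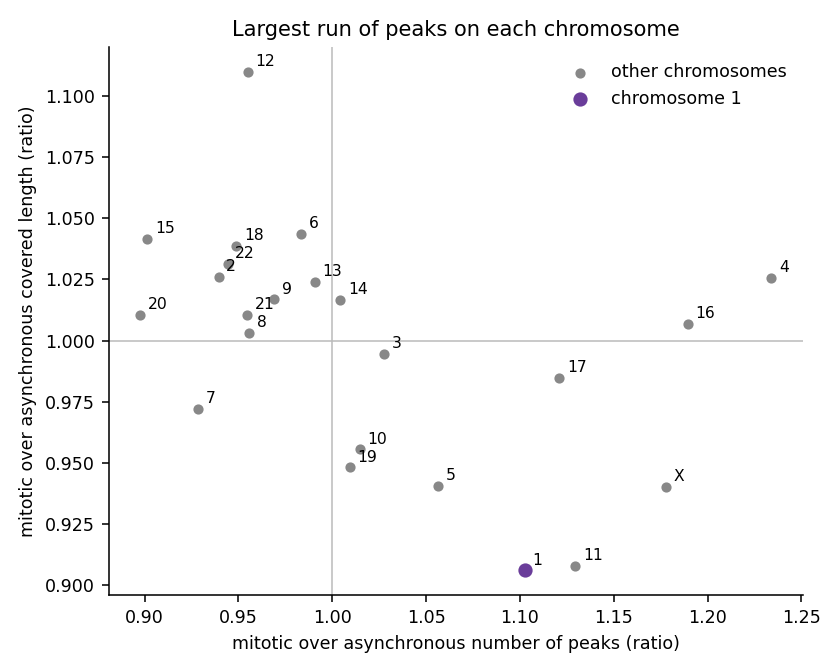
Ratio of mitotic to asynchronous covered length against the ratio of the number of peaks, 1 point for the largest run of peaks on each of 23 chromosomes, labelled by chromosome, with lines at 1. Chromosome 1 lies lowest, at 1.10 for peaks and 0.906 for covered length, next to chromosome 11.

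The 1q12 block was nearly empty in asynchronous cells and held scattered, short and weak peaks in mitotic cells. The asynchronous list had 1 peak there, of 117 bp at 132265829 to 132265945, with a fold enrichment of 3.72. The mitotic list had 47 peaks, from 127453954 to 142164548, which together covered 9047 bp. The ratio of 47 had an interval from 8.03 to 1895. No peak of one list met a peak of the other, and the asynchronous peak lay 169 kb from the nearest mitotic one. Over the whole lists 81.9% of asynchronous and 79.2% of mitotic peaks did meet one. With 1 asynchronous peak of 117 bp in the block, hardly any overlap was possible. Whether the lists differ in sites here cannot be told from it. Mitotic widths ran from 111 to 291 bp with a median of 191 bp, and fold enrichment ran from 2.09 to 4.56 with a median of 3.59. In the mitotic α-satellite block the narrowest peak had 149 bp and the lowest fold enrichment was 3.59, so the 1q12 peaks lay at the lower end of these ranges or below it. None of the 47 passed the strict limit, where 77.6% of the whole mitotic list did. For 0 of 47 the upper end of the exact interval is 7.55%.

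The mitotic 1q12 peaks were spread over the whole block. They fell into 29 sites when peaks at most 100 kb apart were joined, and 19 of these were single peaks. Of the 16 windows of 1 Mb, 15 held at least 1 peak, with a median of 2.5 and a highest count of 9. By windows of 4 Mb from 127000001 on, the counts were 18, 5, 10 and 14. The median gap between neighbours was 177 kb and the longest was 2184 kb, from 127492196 to 129676528. After the last peak no further one followed for 4.05 Mb, up to 146218603.

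The strongest mitotic 1q12 peak by fold enrichment lay at 139677727 to 139677948, with 4.56 over 222 bp. It was followed by peaks at 129694252 to 129694423 (4.41), 132096600 to 132096845 (4.37), 139888126 to 139888301 (4.30) and 136133401 to 136133648 (4.28). The widest lay at 142164258 to 142164548, with 291 bp and a fold enrichment of 3.47. The next were 272 bp at 142153576 to 142153847, 270 bp at 137747954 to 137748223, 267 bp at 130710028 to 130710294 and 265 bp at 139180430 to 139180694. All of them lie below the median fold enrichment of the mitotic α-satellite block, and the widest is narrower than its lower quartile of 423 bp.

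The 6 peaks closest to the α-satellite block formed a group of their own. They lay within 38.2 kb, from 127453954 to 127492195, beyond an empty stretch of 608 kb. Their pileup, the authors' signal height in an unstated scaling, ran from 11.4 to 25, while their fold enrichment ran from 2.09 to 3.28, and 5 of them were lower in it than any other peak of the block. The other 41 had a pileup from 4.19 to 13.2 and a fold enrichment from 2.86 to 4.56. Pileup divided by fold enrichment, a rough measure of the local background the peak caller used, had a median of 5.23 in the 6 peaks and 1.78 in the 41, against 1.25 in the mitotic α-satellite block and 1.26 over the 127 mitotic peaks elsewhere on chromosome 1. The group of 6 was thus high in signal and high in local background at once. This group was picked after its values were seen; without it 41 mitotic peaks were left.

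**Figure D4:**
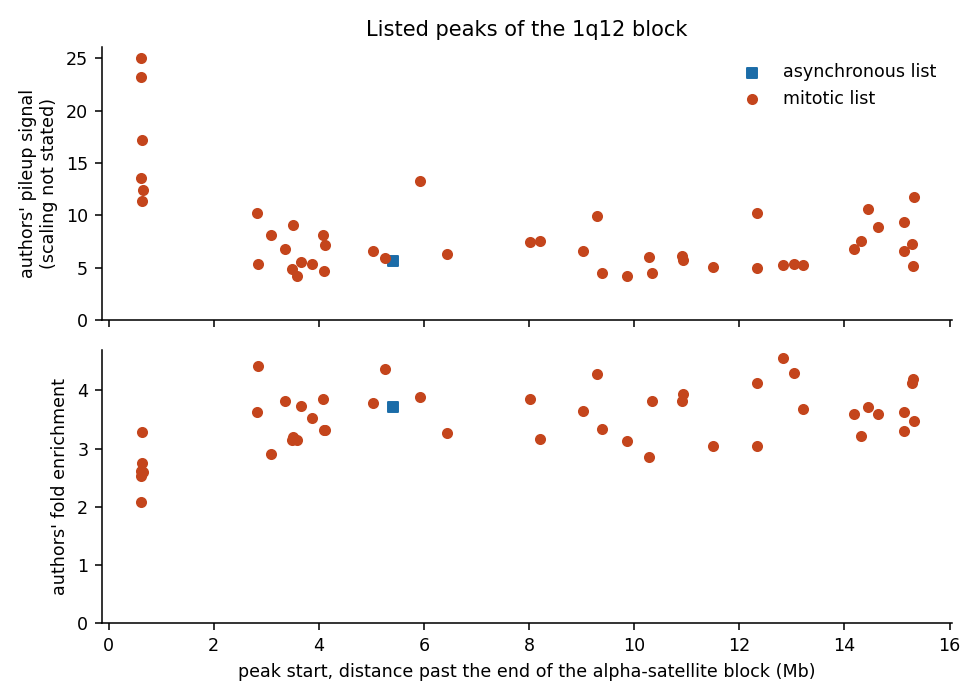
Authors' pileup signal (upper panel, scaling not stated) and fold enrichment (lower panel) of each listed 1q12 peak against the distance of its start past the end of the α-satellite block (Mb), circles for the mitotic and a square for the asynchronous list. The 6 mitotic peaks nearest to the block have low fold enrichments, 2.09 to 3.28, beside pileups of 11.4 to 25; the others are spread up to the end of the block.

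The mitotic 1q12 peaks were denser than those on the arms of the same chromosome. They numbered 2.94 per Mb over the 16 Mb of the block, against 127 peaks or 0.567 per Mb over the other 224 Mb of chromosome 1 up to its furthest listed peak, a ratio of 5.18 (3.62 to 7.29). In the asynchronous list the values were 0.0625 and 0.0804 per Mb, from 1 and 18 peaks, a ratio of 0.777 with a wide interval from 0.0187 to 4.92. The arm peaks of the mitotic list were also narrow and weak, with a median width of 218 bp and a median fold enrichment of 3.87. In the 16 Mb that follow the largest run on chromosome 9, which also carries a large heterochromatin block next to its centromere, there were 0 asynchronous and 1 mitotic peaks. In the same window on chromosome 16 there were 31 and 25, and they were wider, with medians of 671 and 745 bp. Few asynchronous and more mitotic peaks were also found after the largest runs of chromosomes 7 (2 and 12), 8 (1 and 10), 10 (3 and 11), 15 (1 and 9) and 17 (3 and 13). The same held for chromosomes 18 (1 and 3) and 19 (3 and 8). Median mitotic widths there lay between 203.5 and 245 bp. These windows were picked after their values were seen. The direction of the difference was therefore not particular to 1q12. Its mitotic count of 47 was the highest among the windows picked, where the others held at most 13. Windows on other chromosomes, such as 12 (53 and 46) and 20 (257 and 238), held many peaks in both lists. Some held few peaks without more in the mitotic list, such as 2 (9 and 8), 13 (0 and 0) and 14 (4 and 2). Those of 21 (1 and 2) and X (0 and 2) were nearly empty in both.

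Peak names carry running numbers that rise with position along chromosome 1 and leave gaps between listed peaks. Missing numbers are read here as calls left out before deposit; this was not checked, since no fuller list or rule of selection was used, and the counts of calls below hold only under that reading. Between the end of the α-satellite block and the first listed peak past the range, 234 asynchronous and 1232 mitotic calls had been numbered, a ratio of 5.26 (4.57 to 6.08). This was far from the ratio of 47 among listed peaks. On the short-arm side of the block the numbered calls were 858 and 4229, a ratio of 4.93 (4.58 to 5.31). From the first listed peak past the range to the last of the chromosome they were 584 and 4061, a ratio of 6.95 (6.37 to 7.60). Inside the α-satellite block they were 4054 and 4700, a ratio of 1.16 (1.11 to 1.21). By numbered calls the ratio after the block was thus near that of the short-arm side and below that of the rest of the long arm, and the ratio in the α-satellite block was the lowest of these 4.

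The listed share of these calls differed between stretches. Over the whole lists 42.4% of the asynchronous and 22.4% of the mitotic calls were listed. In the α-satellite block the shares were 61.6% and 58.6%. The largest runs of the other chromosomes had higher medians, 70.6% and 69.7%. Among the 23 runs the block was the 7th from below in the asynchronous and the 6th from below in the mitotic list. After the block 0.427% of the asynchronous calls (0.0108 to 2.36%) and 3.81% of the mitotic calls (2.82 to 5.04%) were listed. On the short-arm side the shares were 1.17% (0.560 to 2.13%) and 1.32% (1.002 to 1.72%). On the rest of the long arm they were 1.37% (0.593 to 2.68%) and 1.75% (1.37 to 2.20%). The mitotic calls after the block were therefore listed more often than those of either arm, while the asynchronous intervals overlap. Numbered calls were also denser after the block than on the short-arm side in both lists, at 12.4 against 7.05 per Mb in the asynchronous and 63.6 against 34.8 per Mb in the mitotic list. The stretch reaches past the range, to 145750526 for asynchronous and 146218602 for mitotic calls, because positions of unlisted calls are unknown.

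**Figure D5:**
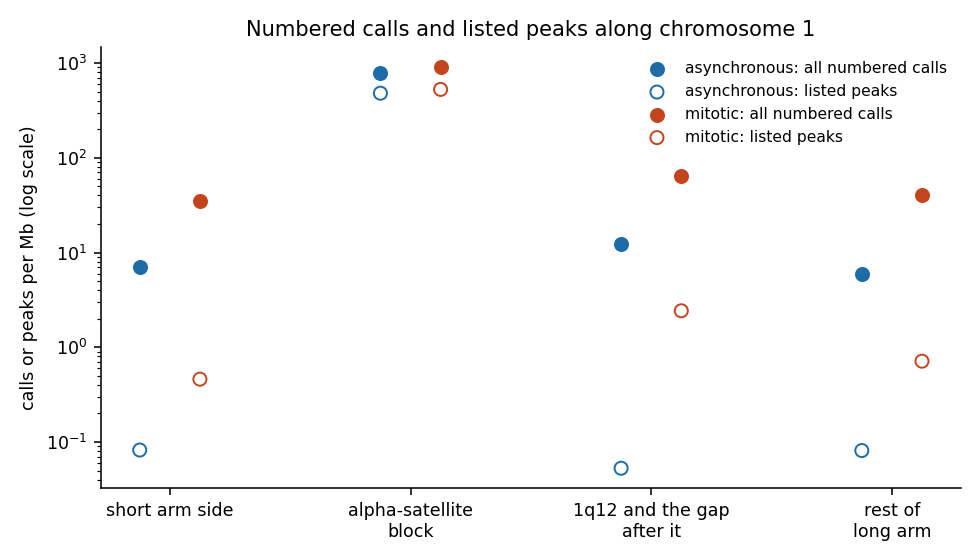
Numbered calls (filled) and listed peaks (open) per Mb (log scale) in 4 stretches of chromosome 1, blue for the asynchronous and orange for the mitotic list. The lists lie close together only in the α-satellite block, with 4054 and 4700 calls; after it 234 and 1232 calls were numbered and 1 and 47 were listed.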

How the data were processed

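The Odd and Even probe libraries of each condition were merged into 1 list, per the labels. Per the submitters' processing notes, fastp, Bowtie2, MACS2 and build hs1 were used; they state no versions, settings or control library. The lists have no header, so columns were read from their values and MACS2's column order. The deposited pileup signal has an unstated scaling. The authors' fold enrichment is a ratio, and the deposited −log10 q values belong to single peaks. The deposited columns of unnamed score were not used for results. In the α-satellite block of both lists the lowest values of columns 10, 11 and 12 lay just above 0.3, 1 and 1.5. Whether these were limits for listing a call was not tested. Values of the input, the Scr and the single probe sets were not used here, and pairing of probes with α-satellite DNA itself was not tested. How reads with many matches were placed is not stated either.

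Covered length, overlaps (1 bp), Clopper-Pearson shares and exact conditional binomial ratios were computed with Python 3.11.15, numpy 2.4.6, pandas 2.3.3 and scipy 1.17.1; the overlap and run code was tested on simulated data. Peaks named singly were, per list, the first, the last, the 3 widest and the 3 highest by fold enrichment in the α-satellite block, and in 1q12 the 5 widest and 5 highest, or all where fewer than 5. No gene is named, since no annotation of build hs1 was used. The regions, limits and tests were chosen with earlier results of these data known.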

Additional observations from a re-analysis of the deposited data

How the results depend on the processing

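In the α-satellite block the ratio of mitotic to asynchronous peaks, 1.10 as reported, was 1.21 after joining peaks at most 500 bp apart. It was 0.541 in the top 25% of each list by fold enrichment, a cut taken in each list by itself. The ratio of covered length stayed below 1 under every alternative run and was 0.490 in that top 25%. There the shared part of the combined length was 29.6%, and 30.1% of asynchronous and 52.2% of mitotic peaks met the other list. The 2 shares were 52.2% and 47.3% with a reciprocal overlap of at least 50%, and 84.9% and 83.8% after joining. The asynchronous share was 77.7% under the strict limit, and the mitotic share 78.4% without peaks of 5 kb or more, an alternative chosen after seeing the data. For the shares under these alternatives no value over the whole lists is given. In 1q12, 0 asynchronous and 0 mitotic peaks were left under the strict limit and in the top 25%, so both counts rest on weak peaks. From 1 Mb past the α-satellite block on, 41 mitotic peaks were left. Assigning peaks by midpoint changed no value. No paired analysis was possible because each condition has 1 merged list, and no library could be left out. Shares of peaks are limited by the unknown depth.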
